A study of Mus musculus with 12 samples.

Results

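The comparison described here is parathyroid hormone (PTH) against vehicle in the marrow of mice that had been irradiated. It was taken by its labels: 3 arrays marked irradiated and PTH were set against 3 marked irradiated and vehicle, which makes 6 of the 12 arrays of the series. All mice were of strain B6, and whole marrow was flushed from the long bones at 16 days of age. Both groups had been irradiated sub-lethally when they were 10 days old, with 2 fractions of 310 cGy, so the controls carry the same radiation exposure. PTH or vehicle was given from day 11 to day 15, for 5 days, starting 24 hours after irradiation. The dose, the injection schedule and the form of PTH are not given in the labels. Another 6 arrays, 3 with vehicle and 3 with PTH, came from mice without irradiation and serve here only as a comparison. Nothing in the labels says that each array stands for a different animal, so the p-values measure the spread between these samples, which may be partly technical.

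PTH acts through the receptor Pth1r on osteoblasts, osteocytes and marrow stromal cells, where it raises cyclic AMP. Given intermittently it increases bone formation, and osteoblasts answer it with signals that also drive osteoclasts, the cells that resorb bone. Marrow adipocytes descend from the same stromal precursors as osteoblasts and accumulate after irradiation. PTH is known to lower marrow fat and to activate lipolysis. The series title asks how a changed marrow environment alters the bone-building action of PTH.

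Values are log2 expression, so a difference of 1 is a 2-fold change, and they were read for 19938 genes. The labelled tissue held its defining genes: Ptprc, the common leukocyte gene CD45, read 10.58 to 11.21 in the 6 irradiated arrays, while the liver gene Alb read 4.03 to 4.32. Each irradiated group had 1 array with the female pattern of Xist and Y-linked genes, replicate 1 in both, and 2 with the male pattern. PTH replicate 3 stood apart from the others. Its interquartile range over all rows was 2.88, against 3.13 to 3.25 in the other 5 irradiated arrays. Genes were sorted by level into 10 sets of nearly equal size, and each array was set against the vehicle mean. The median gene of PTH replicate 3 lay 0.20 above that mean in the dimmest set and at -0.34 in the set with a mean level of 8.11. The same medians lay between -0.05 and 0.08 over the 10 sets in PTH replicate 1 and between -0.04 and 0.02 in PTH replicate 2. The typical gene of middle and high level thus read lower in PTH replicate 3, and the results below are given with and without it.

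**Figure D1:**
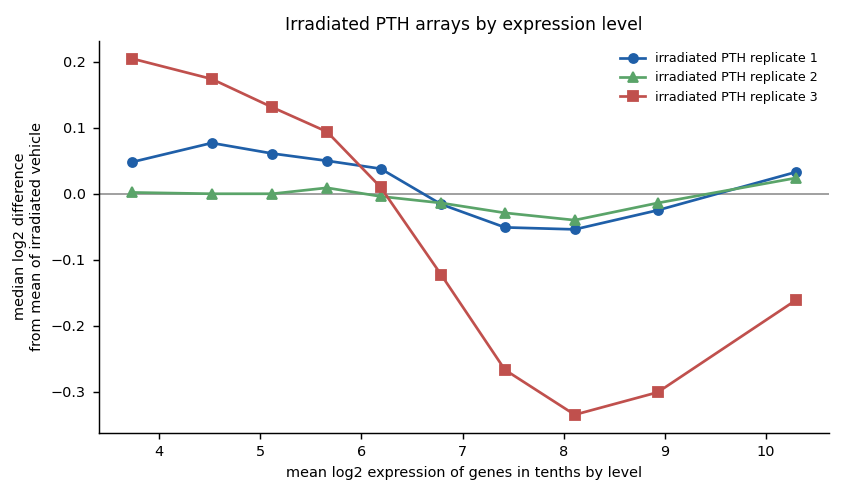
Median log2 difference of each irradiated PTH array from the mean of the irradiated vehicle arrays, for genes in 10 sets of nearly equal size by mean log2 expression (x axis). Replicates 1 and 2 stay near 0, and replicate 3 runs from 0.20 in the dimmest set to -0.34 at a level of 8.11 and -0.16 in the brightest.

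Genes of fat storage lay lower with PTH, and several osteoclast and bone genes lay higher, but limma passed no single gene in the plain comparison. Of 19938 genes, 0 (0%) had an adjusted p under 0.05, and 759 (3.81%) had an unadjusted p under 0.05, of which 420 (2.11%) were lower with PTH and 339 (1.7%) higher. Without PTH replicate 3 the fit again passed 0 genes (0%), with 325 (1.63%) at an unadjusted p under 0.05. The typical standard error of a difference was 0.166. For a description that needs no model, a gene is called non-overlapping when all PTH arrays lay on one side of all vehicle arrays. Over all genes, 847 (4.25%) were non-overlapping and lower with PTH, and 1093 (5.48%) were non-overlapping and higher. Without PTH replicate 3 these shares were 7.19% lower and 8.51% higher.

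The replicate number was also fitted as a block, which compares arrays of the same number. The labels state no pairing, and this fit was chosen because same-numbered irradiated arrays correlated in these same values. With the block, 2 genes passed (0.01%), both lower, and 0 (0%) passed as higher. They were Aqp7, the channel through which adipocytes release glycerol, and Cidec, which enlarges lipid droplets by fusing them. Aqp7 read 8.96, 8.54 and 7.80 in vehicle replicates 1 to 3 and 7.84, 7.53 and 6.32 in PTH replicates 1 to 3. The groups overlap, since PTH replicate 1 lies just above vehicle replicate 3, but the PTH array is the lower one at every number, by -1.13, -1.01 and -1.47. Aqp7 fell by 1.20 on the log2 scale, a 2.3-fold difference (block SE 0.134, adjusted p = 0.0400), against a plain SE of 0.348 and adjusted p = 0.844. Cidec read 8.76, 8.35 and 8.04 with vehicle and 7.97, 7.06 and 6.92 with PTH. Here every PTH array lies below every vehicle array. Cidec fell by 1.06, a 2.09-fold difference (block SE 0.129, adjusted p = 0.0474), against adjusted p = 0.844 without the block. Neither passed with the block when any 1 PTH array was left out, while the sizes changed little. The block differences without PTH replicate 3 were -1.07 for Aqp7 (adjusted p = 0.729) and -1.03 for Cidec (0.845), and the plain fit gave -0.75 and -0.86. Leaving out PTH replicate 1 gave block differences of -1.24 and -1.20 (adjusted p = 0.154 for both), and leaving out PTH replicate 2 gave -1.30 and -0.96 (0.143 and 0.504). With the block in all 4 groups the adjusted p was 0.740 for both genes, and with only the 6 irradiated arrays it was 0.284 and 0.368.

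Among genes ranked by p in the plain fit, with predicted genes, clones and small RNAs among the classes passed over, Plin1 came first on the lower side. It encodes perilipin, the coat protein of adipocyte lipid droplets that holds back lipolysis until it is phosphorylated. Plin1 read 7.90, 7.41 and 7.65 with vehicle and 7.02, 6.85 and 6.91 with PTH, with the groups well apart. The means were 7.65 ± 0.245 and 6.93 ± 0.0845 (SD, n = 3), a difference of -0.73 (SE 0.130, limma adjusted p = 0.844), or 1.65-fold. It was -0.72 without PTH replicate 3, so that array hardly moves it, and the other 2 PTH arrays lie on either side of it.

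The stretches of DNA upstream of these 3 genes are shown because they are the fat genes that lead the ranking or passed with the block. Each is the 250 bases before the most upstream RefSeq transcript start of build GRCm38.p6, printed 5′ to 3′ on the gene's strand, which is the minus strand for all 3. They lie at chr4:41048137-41048386 for Aqp7, chr6:113435761-113436010 for Cidec and chr7:79732777-79733026 for Plin1. Capitals mark matches, on either strand, to AGGTCA, the core site bound by nuclear receptors such as PPAR gamma, and to TTGCNNAA, a site of the kind bound by C/EBP factors.
Aqp7: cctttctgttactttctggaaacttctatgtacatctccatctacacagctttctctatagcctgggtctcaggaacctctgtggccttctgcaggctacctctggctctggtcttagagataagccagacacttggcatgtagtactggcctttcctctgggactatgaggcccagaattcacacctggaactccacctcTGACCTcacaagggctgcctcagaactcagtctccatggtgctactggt
Cidec: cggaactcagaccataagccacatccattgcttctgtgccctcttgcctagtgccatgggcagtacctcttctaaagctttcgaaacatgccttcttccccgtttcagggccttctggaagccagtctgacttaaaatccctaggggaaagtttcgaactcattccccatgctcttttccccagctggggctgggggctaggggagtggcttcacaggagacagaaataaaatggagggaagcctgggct
Plin1: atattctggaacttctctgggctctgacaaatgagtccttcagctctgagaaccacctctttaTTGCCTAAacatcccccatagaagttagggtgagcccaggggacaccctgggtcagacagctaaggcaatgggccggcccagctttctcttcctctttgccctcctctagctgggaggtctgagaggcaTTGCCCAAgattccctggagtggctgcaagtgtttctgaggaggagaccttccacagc

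The Aqp7 window holds 1 AGGTCA match, read on the opposite strand from 49 to 44 bases before the start. The Plin1 window holds 2 TTGCNNAA matches, at 187 to 180 and at 58 to 51 bases before the start. The Cidec window holds neither motif, nor TGACGTCA, the full cyclic AMP response element. Over 27025 promoters, AGGTCA occurs in 13.8%, TTGCNNAA in 9.55% and TGACGTCA in 1.6%. Among 53 fat genes with a matched promoter the counts were 11, 3 and 1, and the single TGACGTCA was that of Pnpla3. These matches describe the letters only and do not show that a factor binds there.

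The wider set of fat genes was drawn up by role and held 72 measured members. It was written with earlier results of these data known, so its counts are descriptions. Of these, 65 had a negative difference, with a median of -0.33 against 0.01 for all genes. Without PTH replicate 3, 62 were negative and the median was -0.24 against 0.00. Non-overlapping members numbered 18 lower and 1 higher (25% and 1.39%), beside the 4.25% and 5.48% of all genes. Without PTH replicate 3 they numbered 22 lower and 3 higher (30.6% and 4.17%), beside the 7.19% and 8.51% of all genes. Taken by replicate number, 46 of the 72 were lower with PTH in all 3 pairs and 3 were higher in all, where the shares over all genes were 16.4% and 16.8%. At an unadjusted p under 0.05 in the plain limma fit, 23 were lower and 0 higher, beside 2.11% and 1.7% of all genes. The mean over the 72 genes was 7.82, 7.62 and 7.55 in the vehicle arrays and 7.45, 7.32 and 7.02 in the PTH arrays. The groups do not overlap, and the lowest value belongs to PTH replicate 3. In that array 16 housekeeping genes also averaged 11.07, against 11.33 to 11.37 in the other irradiated arrays. They averaged 11.1 to 11.31 in the nonirradiated arrays. In whole marrow, fewer fat cells and less RNA per fat cell cannot be told apart.

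**Figure D2:**
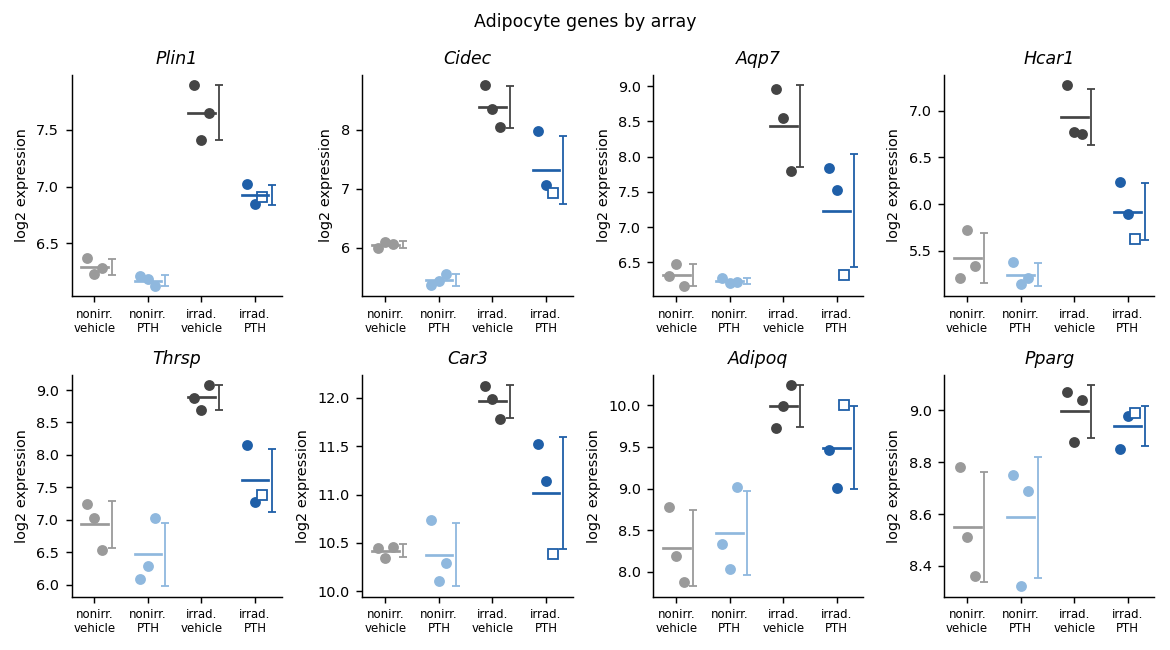
Log2 expression of 8 adipocyte genes on each of the 12 arrays, with the mean as a line and ± SD as a bar (n = 3), and the narrow-range PTH array as an open square. Plin1, Cidec, Hcar1, Thrsp and Car3 show the irradiated PTH arrays entirely below the irradiated vehicle arrays, Adipoq and Pparg show them overlapping.

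Of 12 lipid droplet genes, 5 were non-overlapping and lower (41.7%, beside 4.25% of all genes), also 5 without PTH replicate 3 (41.7%, beside 7.19%). Besides Plin1 and Cidec these were Plin4, another perilipin (-0.85), Cav1, caveolin of the adipocyte membrane (-0.52), and Bscl2, seipin, which shapes new droplets (-0.55). Cav1 read 9.56, 9.36 and 9.38 with vehicle and 9.15, 9.04 and 8.56 with PTH, so its lowest value is PTH replicate 3, though the others also lie below the vehicle range. For Bscl2 the gap was narrow outside that array, and its difference shrank to -0.18 without it. Plin2, the perilipin of most cell types, read 10.71, 10.42 and 10.38 against 10.32, 10.41 and 9.34, with overlap. Plin5, the perilipin of oxidative tissues, was the 1 non-overlapping fat gene on the higher side, at 0.14. The median of the droplet list was -0.40 with all arrays and -0.19 without PTH replicate 3.

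Fatty acid and triglyceride synthesis had 20 of 21 members below 0, with a median of -0.49, and -0.31 without PTH replicate 3, and 5 were non-overlapping and lower (23.8%, beside 4.25% of all genes). Thrsp, a thyroid hormone-responsive activator of fat synthesis, read 8.88, 8.70 and 9.08 with vehicle and 8.16, 7.28 and 7.38 with PTH, a difference of -1.28 (SE 0.284, adjusted p = 0.844). That is 2.43-fold, without overlap, and the difference was -1.16 without PTH replicate 3. Fasn, the fatty acid synthase, read 8.23, 7.75 and 7.36 against 7.27, 7.19 and 6.40, with only a narrow margin between the nearest arrays of the groups. Scd1, which makes monounsaturated fatty acids, read 12.62, 12.45 and 12.34 against 12.21, 11.83 and 11.46 (difference -0.64), and Lpl, the lipase that takes up circulating fat, differed by -0.48. Me1, malic enzyme that supplies NADPH for synthesis, was the fifth non-overlapping member at -0.48. The glycerol-3-phosphate enzymes Gpd1 (-0.60) and Pck1 (-0.80) were lower in every numbered pair although their groups overlap. Lpin1, Dgat1, Dgat2 and Agpat2, later steps of triglyceride assembly, lay between -0.69 and -0.55 with all arrays and between -0.35 and -0.27 without PTH replicate 3.

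Genes of lipolysis and metabolite sensing also lay lower with PTH, with a median of -0.47, and -0.29 without PTH replicate 3, and 4 of 14 members non-overlapping (28.6%, beside 4.25% of all genes). Hcar1, the lactate receptor that restrains lipolysis in adipocytes, read 7.28, 6.77 and 6.75 with vehicle and 6.24, 5.89 and 5.63 with PTH (difference -1.01, SE 0.197, adjusted p = 0.844). The groups are well separated, and the value without PTH replicate 3 was -0.87. Lipe, hormone-sensitive lipase, was non-overlapping at -0.78, and Pnpla2, the lipase that opens triglyceride breakdown, overlapped with a difference of -1.19, of which -0.57 remained without PTH replicate 3. Car3, a carbonic anhydrase abundant in adipocytes and slow muscle, read 12.12, 11.99 and 11.78 against 11.52, 11.14 and 10.38. Its groups are apart, and its difference was -0.95, and -0.63 without PTH replicate 3. Acvr1c, an activin and nodal receptor of adipocytes, was non-overlapping at -0.59. Aoc3, an amine oxidase of adipocyte and vessel surfaces, differed by -1.28 and by -0.65 without PTH replicate 3, with overlap in both. Of the 14 members of this list, lipases included, 13 were below 0, the exception being Lpar1, a lysophosphatidic acid receptor, at 0.13.

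Among adipocyte hormones the median was -0.19, and -0.26 without PTH replicate 3. Adipoq, which encodes adiponectin, read 9.73, 9.99 and 10.24 with vehicle and 9.46, 9.01 and 10.00 with PTH. The groups overlap only through PTH replicate 3, in contrast to the genes above, and the difference was -0.50 with it and -0.75 without it. Fabp4, the fatty acid carrier of adipocytes, read 11.64, 11.72 and 11.84 against 11.45, 11.45 and 11.77, and again PTH replicate 3 is the array inside the vehicle range. Its difference was -0.17, and -0.28 without that array. Lep, leptin, was dim in all arrays at 4.22 to 5.05. With all arrays Nnat, neuronatin, was the 1 non-overlapping member of the 9 hormone and secreted-product genes, at -0.80 (11.1% lower, beside 4.25% of all genes). Without PTH replicate 3, 3 members were lower (33.3%, beside 7.19%) and 1 higher (11.1%, beside 8.51%).

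Pparg, the master regulator of adipocyte differentiation, showed no such gap. It read 9.07, 8.88 and 9.04 with vehicle and 8.85, 8.98 and 8.99 with PTH, a difference of -0.05 with a 95% interval of -0.38 to 0.27. Its partner Cebpa read 7.98, 7.52 and 7.29 against 7.31, 7.24 and 6.92, with a difference of -0.44 and a slight overlap. Of 17 regulators of adipocyte differentiation, 3 were non-overlapping and lower (17.6%, beside 4.25% of all genes): Adig, adipogenin (-0.64), Mrap, an accessory protein of melanocortin receptors that is high in fat (-0.65), and Nr1h3, the oxysterol receptor LXR alpha (-0.19). The list median was -0.16, nearer to 0 than those of the droplet, synthesis and lipolysis lists. Ucp1 (0.11), Prdm16 (-0.15) and Cidea (-0.16), genes of brown fat, did not stand apart from the vehicle arrays.

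**Figure D3:**
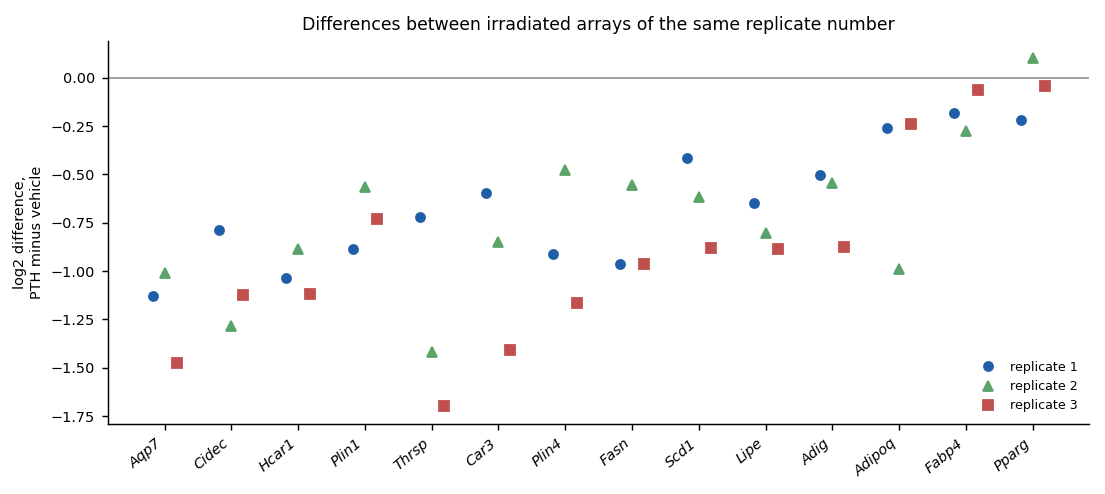
Log2 difference between the PTH and the vehicle array of the same replicate number, for 14 fat genes after irradiation. Every point lies below 0 except replicate 2 of Pparg at 0.10, and the genes run from Aqp7, between -1.47 and -1.01, to Fabp4 and Pparg near 0.

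Without irradiation the fat genes as a set lay at a lower level and had a median difference near 0, but single members differed there too. The 72 fat genes averaged 6.92, 7.10 and 6.90 in nonirradiated vehicle arrays and 6.97, 7.03 and 6.94 in nonirradiated PTH arrays. Their median difference was 0.01, the same as for all genes, with 1 member non-overlapping and higher and 6 lower, where 3.21% and 3.62% of all genes were. In that pair of groups PTH cannot be told apart from sex, since all 3 vehicle arrays had the male and all 3 PTH arrays the female pattern. Limma passed 0 of 19938 genes there (0%), with 356 (1.79%) at an unadjusted p under 0.05. The fit pools the spread of all 4 groups, and the irradiated groups mix the sexes. Even Xist did not pass, at 5.48 to 5.75 in nonirradiated vehicle and 11.19 to 11.69 in nonirradiated PTH arrays. Whether the PTH difference itself depended on irradiation was tested as an interaction with the same pooled spread. In it 0 genes passed (0%), with 1094 (5.49%) at an unadjusted p under 0.05. The interaction was -1.12 for Aqp7 (SE 0.492), -0.83 for Hcar1 (SE 0.279), -0.60 for Plin1 (SE 0.184) and -0.47 for Cidec (SE 0.349), with adjusted p = 0.732, 0.732, 0.732 and 0.733. Some fat genes also lay lower with PTH without irradiation. The 6 non-overlapping ones were Scd1 (-0.83, against -0.64 after irradiation), Cidec (-0.60), Acvr1c (-0.44), Retn, resistin (-0.34), Fitm2, a droplet-forming protein (-0.24), and Plin1 (-0.13), and 3 of them belong to the 12 droplet genes. Me1 differed by -0.50 there, against -0.48 after irradiation.

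Osteoclast genes lay on the other side, most clearly in the PTH arrays of normal range. Of 21 members, 5 were non-overlapping and higher and 0 lower (23.8%, beside 5.48% of all genes), with a median of 0.15. Without PTH replicate 3, 11 were non-overlapping and higher (52.4%, beside 8.51%), with a median of 0.29. The list averaged 8.14, 8.10 and 8.0 with vehicle and 8.39, 8.46 and 7.80 with PTH, so PTH replicate 3 is the lowest of the 6 and the other PTH arrays are the highest.

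Slc9b2, a sodium-proton exchanger that rises as osteoclasts mature, read 7.12, 7.19 and 7.41 with vehicle and 8.27, 8.40 and 7.66 with PTH (difference 0.87, SE 0.267, adjusted p = 0.844). It exceeded the vehicle range in PTH replicate 3 too, and reached 1.09 without that array. Atp6v0d2, a proton pump subunit needed for osteoclast fusion, read 9.51, 9.60 and 9.85 against 10.41, 10.64 and 10.01, a difference of 0.70. The remaining non-overlapping members were Calcr, the calcitonin receptor (0.36), Tnfrsf11a, RANK, the receptor that starts osteoclast differentiation (0.28), and Rab38 (0.16). Ctsk, cathepsin K, the collagen-degrading protease, read 11.45, 11.36 and 10.96 against 12.00, 12.07 and 10.59. Acp5, tartrate-resistant acid phosphatase, read 10.90, 10.58 and 10.26 against 11.16, 11.10 and 10.23. For both, PTH replicates 1 and 2 top every vehicle array and PTH replicate 3 is the lowest of all, so their differences were 0.30 and 0.25 with it and 0.78 and 0.55 without it. Nfatc1, the transcription factor of osteoclast differentiation, and Tcirg1, a pump subunit, were -0.29 and -0.31 with all arrays and 0.14 and 0.13 without PTH replicate 3. Without irradiation the median of the list was 0.33, against 0.01 for all genes, with sex moving with treatment there. Non-overlapping members numbered 0 (0%, beside 3.21% higher and 3.62% lower of all genes). In a list of 21 genes that 0 is no result about them.

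**Figure D4:**
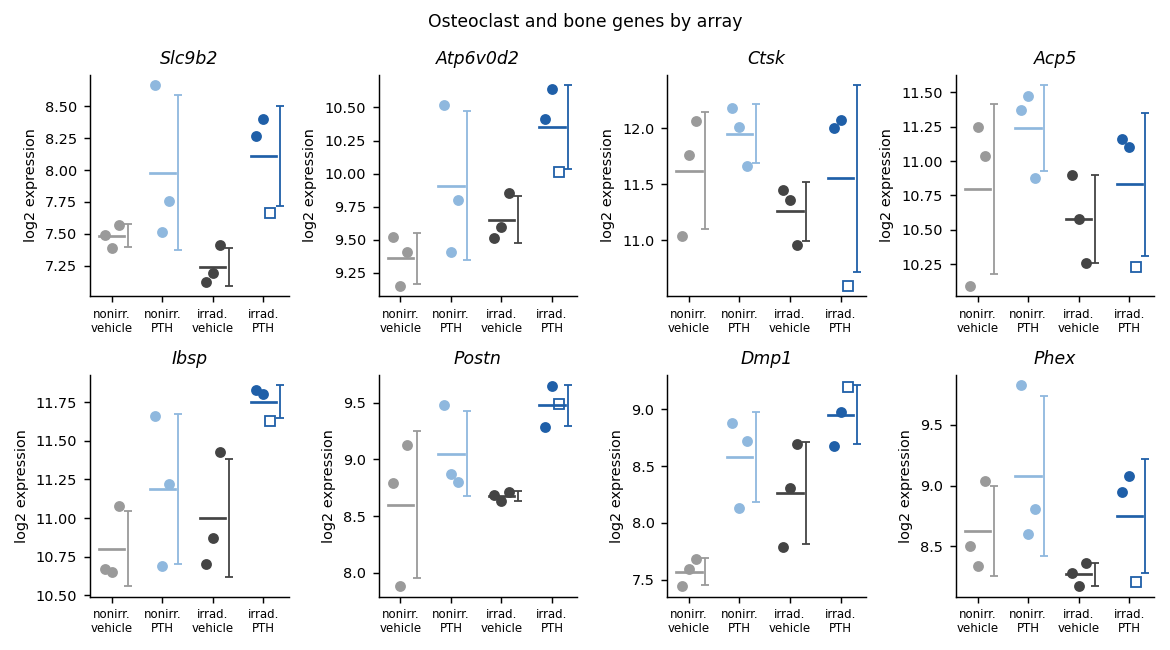
Log2 expression of 8 osteoclast and bone genes on each of the 12 arrays, with the mean as a line and ± SD as a bar (n = 3), and the narrow-range PTH array as an open square. Slc9b2, Atp6v0d2, Ibsp and Postn are higher in all 3 irradiated PTH arrays, while for Ctsk and Acp5 the open square lies below the irradiated vehicle arrays and for Phex among them.

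With all arrays, bone-forming cells showed higher values in a few matrix and osteocyte genes rather than throughout. Without PTH replicate 3 most of these genes lay above 0. Over the 47 measured genes of osteoblasts, bone matrix and osteocytes, 7 were non-overlapping and higher (14.9%, beside 5.48% of all genes) and 1 lower (2.13%, beside 4.25%), with a median of 0.04. Without PTH replicate 3, 13 were higher (27.7%, beside 8.51%) and 2 lower (4.26%, beside 7.19%), and the median was 0.14. Above 0 were 28 of the 47 with all arrays and 43 without PTH replicate 3. Of all 19938 genes, 10414 and 10238 were. Ibsp, bone sialoprotein of mineralizing matrix, read 10.70, 10.87 and 11.43 with vehicle and 11.83, 11.80 and 11.63 with PTH, a difference of 0.75 (SE 0.243, adjusted p = 0.844). Postn, periostin of the bone-covering layer, read 8.69, 8.63 and 8.71 against 9.29, 9.65 and 9.49, a difference of 0.80 (SE 0.274). Both genes held their separation in all 3 PTH arrays, PTH replicate 3 included. Dlx5, a homeobox factor of osteoblasts, was non-overlapping at 0.31, and the collagen genes Col5a2 and Col24a1 at 0.15 and 0.12.

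Col1a1, the main collagen of bone, did not share this. It read 10.36, 10.16 and 10.07 with vehicle and 10.18, 10.24 and 9.15 with PTH, a difference of -0.34 that was 0.01 without PTH replicate 3. Alpl, alkaline phosphatase of mineralizing osteoblasts, was -0.17 with and 0.41 without that array, and Phospho1, a phosphatase that starts mineralization, was 0.23 and 0.50. Sp7, osterix, the osteoblast transcription factor, was 0.06 and 0.25. Dcn, decorin, was the only non-overlapping bone gene on the lower side with all arrays, at -0.45, and -0.12 without PTH replicate 3. Runx2, Bglap and Spp1 were not analysed here.

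Osteocyte genes had 11 of 15 values above 0, and 13 without PTH replicate 3, where 10414 and 10238 of 19938 genes did. Non-overlapping and higher were 2 (13.3%, beside 5.48% of all genes), and 5 without PTH replicate 3 (33.3%, beside 8.51%). Dmp1, a mineral-binding protein of young osteocytes, read 7.79, 8.31 and 8.69 with vehicle and 8.68, 8.98 and 9.20 with PTH. Each PTH array exceeds the vehicle array of its number, by 0.89, 0.67 and 0.51, while the groups touch at 8.68 and 8.69. Mepe, another osteocyte matrix protein, was dim and non-overlapping at 0.29. Sost, the Wnt inhibitor sclerostin that PTH is known to lower, read 6.06, 6.22 and 6.06 against 6.29, 6.26 and 6.52, a difference of 0.24 on the higher side (95% interval -0.03 to 0.51). Phex, a phosphate-regulating peptidase, was 0.48 with all arrays and 0.74 without PTH replicate 3. Fgf23, the phosphate hormone of osteocytes, read 9.16, 8.56 and 9.06 against 9.03, 8.30 and 7.20. Its difference of -0.75 rests on PTH replicate 3 and was -0.26 without it.

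The receptor and the immediate targets of PTH showed little at this harvest, a day after the last treatment day. Pth1r read 7.21, 6.87 and 6.88 with vehicle and 7.26, 7.15 and 6.43 with PTH, a difference of -0.04 (95% interval -0.54 to 0.46), and 0.22 without PTH replicate 3. Of 47 measured genes of the PTH receptor, the cyclic AMP response and the PTH-regulated signals, 3 were non-overlapping and higher (6.38%, beside 5.48% of all genes) and 1 lower (2.13%, beside 4.25%), with a median of -0.04. The counts without PTH replicate 3 were 6 higher (12.8%, beside 8.51%) and 3 lower (6.38%, beside 7.19%), with a median of 0.00. Shares near those of all genes are no result about these genes. With all arrays, the higher ones were Ptgs2, the prostaglandin synthase COX-2 (0.28), Fosb, an immediate early factor (0.19), and Sost. Lower was Igf1, insulin-like growth factor of bone and marrow cells, which read 10.49, 10.42 and 10.17 against 10.12, 10.15 and 9.79. The nearest arrays of the groups almost touch, and the difference was -0.34, and -0.23 without PTH replicate 3.

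Tnfsf11, RANKL, the osteoclast-driving signal that osteoblast-lineage cells make under PTH, read 8.04, 7.88 and 7.94 with vehicle and 7.99, 7.55 and 8.10 with PTH, a difference of -0.07 (95% interval -0.39 to 0.25). Its decoy receptor Tnfrsf11b, osteoprotegerin, differed by 0.17. Il6 read 4.32, 4.89 and 4.79 against 4.93, 4.87 and 5.25, with overlap and a difference of 0.35. Mmp13, the collagenase that PTH induces in osteoblasts, read 11.57, 11.76 and 11.65 against 12.02, 12.03 and 11.41, so PTH replicates 1 and 2 are above and PTH replicate 3 below all vehicle arrays. Its difference was 0.16 with and 0.37 without PTH replicate 3. Igfbp5, an IGF-binding protein of bone, was -0.89 and -0.45, with overlap in both. Of 25 Wnt pathway genes, 2 were non-overlapping, Sost and the ligand Wnt4 (0.25), both higher (8%, beside 5.48% of all genes), and the median was -0.03.

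**Figure D5:**
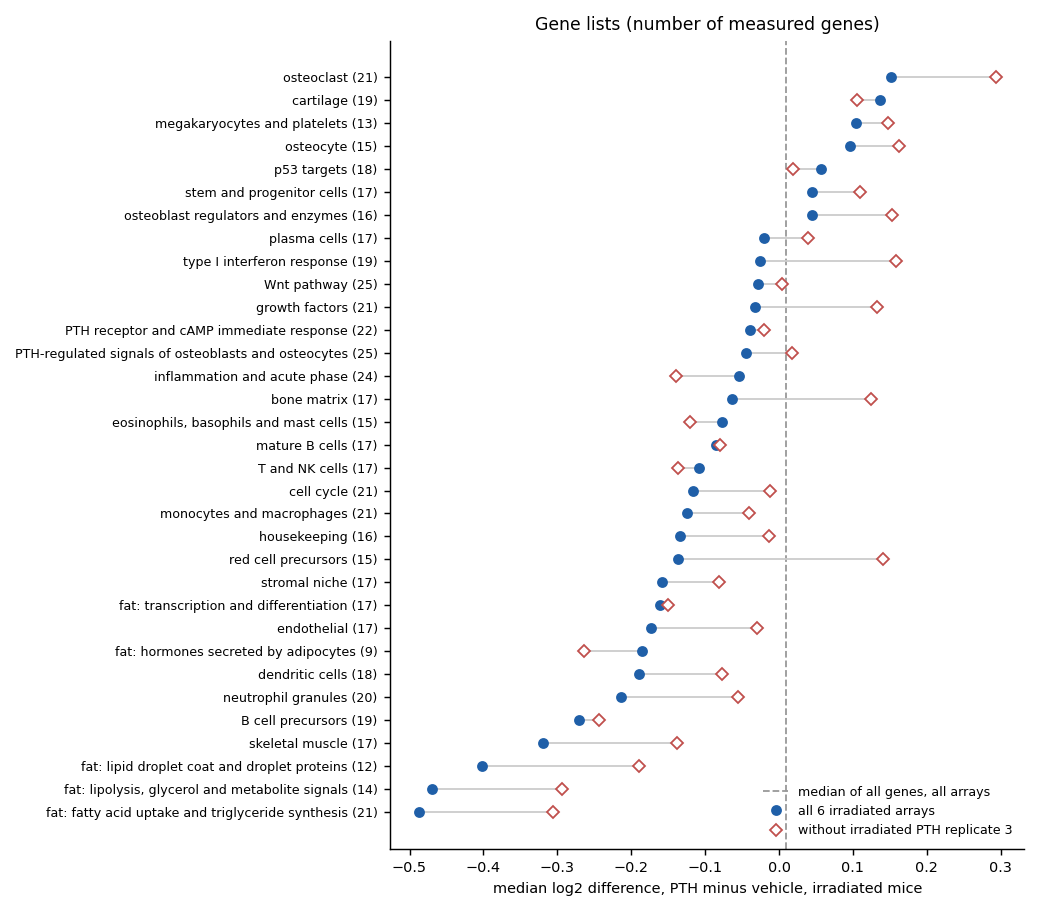
Median log2 difference, PTH minus vehicle after irradiation, of each of 33 gene lists with all 6 arrays (filled circles) and without the narrow-range PTH array (open diamonds), with the median of all genes as a dashed line. The lists of fat uptake and synthesis, lipolysis and droplet proteins are the lowest 3 and the osteoclast list the highest with all arrays, and 7 lists change sides of 0 between the 2 sets: red cells, bone matrix, interferon response, growth factors, plasma cells, Wnt pathway and PTH-regulated signals.

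Markers of other marrow cells were read on the same arrays. B cell precursor genes lay below 0 in 18 of 19 members, where 9524 of 19938 genes did. Their median was -0.27, and -0.24 without PTH replicate 3. Non-overlapping members numbered 0 (0%, beside 4.25% lower and 5.48% higher of all genes). Without PTH replicate 3, 1 was lower (5.26%, beside 7.19%). These counts are near the shares of all genes and are no result about the list. Cd79a, part of the B cell receptor, read 7.74, 6.74 and 6.85 with vehicle and 6.49, 6.76 and 6.04 with PTH, and vehicle replicate 1 is the array that stands high. T and NK cell genes had 3 of 17 members non-overlapping and lower (17.6%, beside 4.25% of all genes), and 5 without PTH replicate 3 (29.4%, beside 7.19%). The 3 were Gzmb, granzyme B of cytotoxic cells (-0.42), Ncr1, an NK cell receptor (-0.36), and Thy1, a T cell surface protein (-0.29). Of the 17 members, however, 7 lay above 0. The list median was -0.11, and it ran from -0.166 to -0.008 over 29 other settings. The neutrophil granule list had a median of -0.21, and -0.06 without PTH replicate 3. Of its 20 members 0 were non-overlapping (0%, beside 4.25% lower and 5.48% higher of all genes), which is no result in a list of this size. Red cell precursor genes moved from a median of -0.14 to 0.14 when PTH replicate 3 was left out.

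Plasma cell genes were not high as a group, with a median of -0.02 over 17 members. Jchain, the joining chain of secreted IgM and IgA, had the smallest p on the higher side among the genes ranked. Predicted genes, clones and small RNAs were among the classes passed over. Jchain read 5.33, 5.71 and 5.56 with vehicle and 6.94, 5.95 and 6.70 with PTH, a difference of 0.997 (SE 0.214, adjusted p = 0.844), 0.91 without PTH replicate 3. All PTH arrays lie above all vehicle arrays, although PTH replicate 2 exceeds the vehicle array of its number by only 0.24. Fkbp11, a secretory-pathway foldase, was non-overlapping at 0.34, and Slamf7, a plasma and NK cell receptor, at -0.62. The plasma cell regulators Prdm1 (0.14), Irf4 (-0.14) and Xbp1 (-0.35) did not stand apart, and Mzb1, an abundant plasma cell chaperone, was -0.10.

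Inflammatory and acute-phase genes had 4 of 24 members non-overlapping and lower (16.7%, beside 4.25% of all genes) and 1 higher (4.17%, beside 5.48%). When PTH replicate 3 was left out, 7 were lower (29.2%, beside 7.19%) and 1 higher (4.17%, beside 8.51%). Cxcl9, a chemokine induced by interferon gamma, read 9.06, 8.78 and 8.62 with vehicle and 8.18, 7.81 and 7.92 with PTH, a difference of -0.85 (SE 0.188, adjusted p = 0.844), and -0.83 without PTH replicate 3. Serpina3n, an acute-phase protease inhibitor, read 10.07, 9.79 and 10.01 against 9.67, 8.86 and 8.51, a difference of -0.95 (SE 0.231). The groups of both genes are apart, and for Serpina3n the nonirradiated arrays read only 5.39 to 5.77. Haptoglobin, Hp, was -0.71, and -0.42 without PTH replicate 3. Cxcl10 was -0.74, and only -0.28 without PTH replicate 3. The median of the list was -0.05, and -0.14 without PTH replicate 3.

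Of 19 cartilage genes, 4 were non-overlapping and higher (21.1%, beside 5.48% of all genes), and also 4 without PTH replicate 3 (21.1%, beside 8.51%). They were Hapln1, which links aggrecan to hyaluronan (0.44), the collagen gene Col9a2 (0.26), Snorc, a cartilage proteoglycan (0.23), and Fgfr3, a growth plate receptor (0.12). Among 17 stromal niche genes the 2 non-overlapping members were lower (11.8%, beside 4.25% of all genes), Grem1, a BMP antagonist, and Flt3l, the ligand of Flt3 (-0.20). Grem1 read 8.55, 8.66 and 8.83 with vehicle and 8.30, 7.57 and 8.14 with PTH, a difference of -0.68, and -0.75 without PTH replicate 3. Cxcl12, the chemokine of the stromal cells that can become fat or bone, was -0.30 with overlap. Of the genes named in these 2 lists, Hapln1, Col9a2, Fgfr3 and Flt3l were picked because their groups do not overlap, after their values were seen.

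Tissue carried along in the flush varied between arrays, and its part in these results was not tested. Skeletal muscle genes averaged 7.13, 6.43 and 7.21 with vehicle and 6.38, 7.21 and 6.42 with PTH over 17 genes, so muscle is high in vehicle replicates 1 and 3 and in PTH replicate 2. Endothelial genes averaged 8.26, 7.99 and 7.83 against 8.01, 8.04 and 7.42 over 17 genes. Like the fat genes they are highest in vehicle replicate 1 and lowest in PTH replicate 3, but the groups overlap.

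Beyond the lists, and with the same classes passed over, other genes also ranked among the 12 of smallest p on the lower side. They were Slc6a13, a transporter of GABA and taurine (-0.80), Kcnk5, a potassium channel (-0.62), and Mtarc1, a mitochondrial reductase (-0.80). So were Cbr2, a carbonyl reductase (-1.38), and Chrdl1, a secreted BMP antagonist (-0.93). Adh1, an alcohol dehydrogenase that also acts on retinol (-0.58), and Tspan12, a tetraspanin of Frizzled signalling (-0.56), completed them. All were non-overlapping, and all stayed below 0 without PTH replicate 3. Cbr2 read 8.25, 8.34 and 8.70 with vehicle and 7.77, 7.16 and 6.21 with PTH, and was -0.96 without PTH replicate 3. Chrdl1 read 8.33, 7.96 and 7.76 against 7.37, 7.25 and 6.66, and its nonirradiated arrays, at 7.93 to 8.37, resemble the irradiated vehicle ones. On the higher side the genes after Jchain were mostly dim. Fabp7, a fatty acid carrier of the nervous system, read 5.31, 5.35 and 5.48 against 6.02, 5.94 and 6.53, a difference of 0.78. Edil3, a secreted integrin ligand, was 0.69, Dlx4, a homeobox factor, 0.44, Fam131a 0.49, L3mbtl1, a chromatin reader, 0.37 and Fsip2, a sperm tail protein, 0.43. Gpr137b-ps (0.67) is a pseudogene and Pramel19 (0.68) and Lce1c (0.52) belong to families of near-identical copies, so their source is uncertain, while Wt1os (0.43) and Gata5os (0.37) are RNAs of the strand opposite to a coding gene. All 12 genes on each side had adjusted p = 0.844.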

How the data were processed

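The authors' deposited values are log2 expression from 12 whole-transcript arrays of 100 ng total RNA each; the scale was read from the values, and the submitters' processing notes name affy, limma and RMA, without versions or roles. Whether all arrays were normalized together and the genome build are not given in the sources used here. Of 35556 rows, 21789 had 1 gene symbol in the platform annotation, 1621 several and 12146 were not listed. They gave 19938 genes, each read from its row with the highest mean, and 21698 rows matched RefSeq's table. The 12 arrays were fitted as 4 group means with limma 3.58.1 in R 4.3.3 (8 residual degrees of freedom, empirical Bayes, Benjamini-Hochberg over all genes, threshold 0.05). The fit was tested on simulated data with independent noise for each gene and array. The simulation held no narrow-range array and no shared deviations of same-numbered arrays, so it does not cover these limits. Precision is limited by the number of arrays.

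In the irradiated groups, arrays of the same replicate number had correlated deviations from their group means (0.447, 0.144 and 0.57), and on that basis the number was also fitted as a block. The labels do not state a pairing, the female-pattern arrays are number 1 in both groups, and vehicle replicate 1 also correlated with PTH replicate 2 (0.396) and vehicle replicate 2 more with PTH replicate 1 (0.177) than with its own number. The nonirradiated numbers (0.244, 0.557 and -0.167) were not taken as pairs.

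The comparison and the 33 lists (601 genes, 560 measured) were chosen with earlier results of these data known, so list counts are descriptions. Named were the 12 genes of smallest p in each direction (predicted genes, clones, receptor families of smell, small RNAs and antigen receptor segments passed over), members of the fat, PTH, bone, Wnt, osteoclast and plasma cell lists, and up to 4 genes of each other list. Ptprc and Alb were read as tissue marks, Xist and Y-linked genes as marks of sex. Alternatives covered scaling, variance model, filters, row choice, a sex term, the block and each array left out.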

Additional observations from a re-analysis of the deposited data

How the results depend on the processing

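Over 29 other settings, the median of the 72 fat genes stayed between -0.44 and -0.23, that of the osteoclast genes between 0.06 and 0.29, that of the bone genes between -0.03 and 0.14 and that of the PTH lists between -0.09 and 0.00. The plain fit, 0 genes, became 2 with the replicate block. It became 1 with the block and only the 6 irradiated arrays, Snord82, a small nucleolar RNA (1.78, adjusted p = 0.0341), and 1 with the block and the same interquartile range in each array, Aqp7 (-1.18, adjusted p = 0.0472). These last 2 settings, the block without each PTH array and the fit without both narrow-range arrays were chosen after seeing the data. The block itself was taken up because same-numbered irradiated arrays correlated in these same values. With the block, 4 genes passed in nonirradiated mice, also without any 1 PTH array and with the same interquartile range, and the interaction passed 4 genes, 4 with the same interquartile range and 3 without any 1 PTH array. These were Xist, Kdm5d, Eif2s3y and, where 4 passed, Uty, all marks of sex. The number of genes with an unadjusted p under 0.05 ran from 263, with the block without PTH replicate 3, to 1940, with the block and only the 6 irradiated arrays.

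With 1 array left out in turn, Pth1r ran from -0.195 to 0.218, Tnfsf11 from -0.182 to 0.094 and Col1a1 from -0.53 to 0.014. Of 67 genes followed over the settings, 5 changed sign in some setting. Sign changes of other genes were not counted. Nfatc1, Tcirg1 and Alpl, for example, are outside the 67 and changed sign without PTH replicate 3. Pth1r was 0.072 without irradiated vehicle replicate 1, 0.218 without PTH replicate 3 or both narrow-range arrays, 0.236 with array weights and 0.163 with the block without PTH replicate 3. Tnfsf11 was 0.094 without PTH replicate 2, 0.006 with quantile normalization and 0.055 with the block without PTH replicate 2. Col1a1 was 0.014 without PTH replicate 3 or both narrow-range arrays. Pparg was 0.002 with array weights, 0.063 with the same interquartile range, block or not, and 0.029 with the block without PTH replicate 1, and Fabp4 was 0.096 with the same interquartile range, block or not. The cause of these moves was not tested. The number of arrays, the unstated pairing and the narrow range of PTH replicate 3 all limit what can be read.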

Other observations

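Mc5r and Tshr, receptors that raise cyclic AMP and are present in mouse adipocytes, belong to no list used above. Both were picked out after their values were seen, and other receptors of this kind were not counted. Mc5r, a melanocortin receptor, read 8.75, 8.03 and 8.06 with vehicle and 7.83, 6.95 and 6.04 with PTH, a difference of -1.34 (SE 0.353, limma adjusted p = 0.844), and -0.89 without PTH replicate 3. Tshr, the thyrotropin receptor, read 7.19, 6.82 and 6.73 against 6.38, 6.02 and 5.06, a difference of -1.09 (SE 0.275), and -0.71 without PTH replicate 3. In both genes all PTH arrays lie below all vehicle arrays, and PTH replicate 3 is the lowest. Without irradiation Mc5r differed by 0.04 and Tshr by -0.24 between PTH and vehicle, with sex moving with treatment there.

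Also seen only after ranking, Svep1, an extracellular matrix protein, read 9.20, 8.75 and 8.35 with vehicle and 8.17, 7.94 and 7.59 with PTH (difference -0.87), and -0.71 without PTH replicate 3. Of 19938 genes, 148 were non-overlapping in opposite directions with and without irradiation. Of the 148, 76 were lower with PTH after irradiation and higher without, and 0 of these 76 were fat genes. Only 1 of the 72 fat genes was non-overlapping and higher without irradiation, so that 0 is no result about them. Sex also moves with treatment in the nonirradiated groups. In the same direction there were 15 lower and 13 higher genes.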
